A study of Rattus norvegicus with 11 samples.

Results

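The genes described here are the Wnt ligands, their receptors and their secreted antagonists, in cells from rat skull defects that had received 1 of 3 scaffolds or none. They were chosen by gene symbol, as every gene of the expression table whose symbol marks it as a Wnt ligand (Wnt), a Frizzled receptor (Fzd), a secreted Frizzled-related protein (Sfrp), a Dickkopf protein (Dkk) or an R-spondin (Rspo1 to Rspo4), together with Lgr4, Lgr5, Lgr6, Lrp5, Lrp6, Porcn, Notum, Sost and Wif1. This gave 48 of 23781 genes. They comprised 18 Wnt ligands, 10 Frizzled receptors, 2 Lrp co-receptors, 4 R-spondins, 3 Lgr receptors, 10 secreted antagonists and Porcn. Expression was measured by RNA sequencing of Cd45- cells, sorted after collagenase digestion of new tissue from calvarial defects that crossed the coronal suture, in Sprague Dawley rats aged 4 months, 6 weeks after surgery. PLA (2 libraries) had an implanted electrospun membrane of polylactic acid, GelMA (3 libraries) a compact hydrogel of methacrylated gelatin, CTS (3 libraries) a porous gel of chitosan, and NC (3 libraries) the same defect with no scaffold. All 4 groups therefore carried a surgical defect, and no uninjured suture was analysed here. The labels do not say whether each library came from 1 animal, so p-values measure the spread between these libraries.

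Wnt ligands are secreted glycoproteins that need a lipid group, attached by the acyltransferase Porcn, before they can leave the cell. Outside the cell they bind Frizzled receptors, either with the co-receptors Lrp5 and Lrp6, which stabilises β-catenin, or without them, which sets cell polarity and movement. Secreted antagonists limit the pathway by binding the ligands (Sfrp proteins, Wif1), by binding Lrp5 and Lrp6 (several Dkk proteins and Sost) or by removing the lipid group (Notum), whereas R-spondins acting through Lgr receptors raise the amount of Frizzled and Lrp on the cell surface. In bone and cranial sutures, the effect of β-catenin signaling through Lrp5 and Lrp6 depends on the cell. The authors cite work in which it held back osteogenesis in undifferentiated stem cells and juvenile calvarial osteoblasts and promoted it in mature ones.

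The libraries held 22509898 to 31290849 counts, and the 48 genes took 0.0647% to 0.189% of them. Ptprc, which encodes Cd45, was present in every library in spite of the sort, at 1020 and 1055 CPM in PLA, 1138 to 1347 CPM in GelMA, 1036 to 1272 CPM in CTS and 336 to 1460 CPM in NC (CPM, counts scaled to a common total after TMM correction for composition). NC replicate 2 stood apart. Its Ptprc was the lowest of the 11 libraries, and its 10 fibroblast markers summed to 232250 CPM, against 9516 and 29417 CPM in the other NC libraries and 23377 to 38985 CPM in the 8 scaffold libraries. For the 48 genes, calls gained or lost without this library are given beside each gene. Calls of the other pathway genes and of the cell type markers were not examined without it. Leaving it out raised the shares of all genes called higher and called lower in every comparison. This library enters comparisons without NC only through the shared steps of the fit, namely the filter, the scaling, the spread and the p adjustment. In bulk libraries of mixed cells, fewer cells of a type and less RNA per cell cannot be told apart.

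At the level of the whole family, the secreted antagonists dominated. Compared per gene length as FPKM (counts scaled by gene length and library total), antagonists made up 72.1% to 84.7% of the summed level of the 48 genes in every library, and Sfrp2 and Sfrp4 alone made up 60.4% to 78.2%. Both encode secreted Frizzled-related proteins, which carry a Frizzled-like domain that binds Wnt ligands. Mean FPKM over the 11 libraries was 130 for Sfrp2, 66.0 for Sfrp4, 12.7 for Dkk3 and 11.4 for Sfrp1. Among receptors, Lrp6 averaged 10.7 FPKM, Fzd1 8.14, Fzd2 4.63, Lgr4 4.33 and Lrp5 3.46 FPKM. Ligands were far lower on the same scale, and the highest, Wnt2, averaged 2.67 FPKM. All these levels varied between libraries of a group, and the orders are given as a description.

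**Figure D1:**
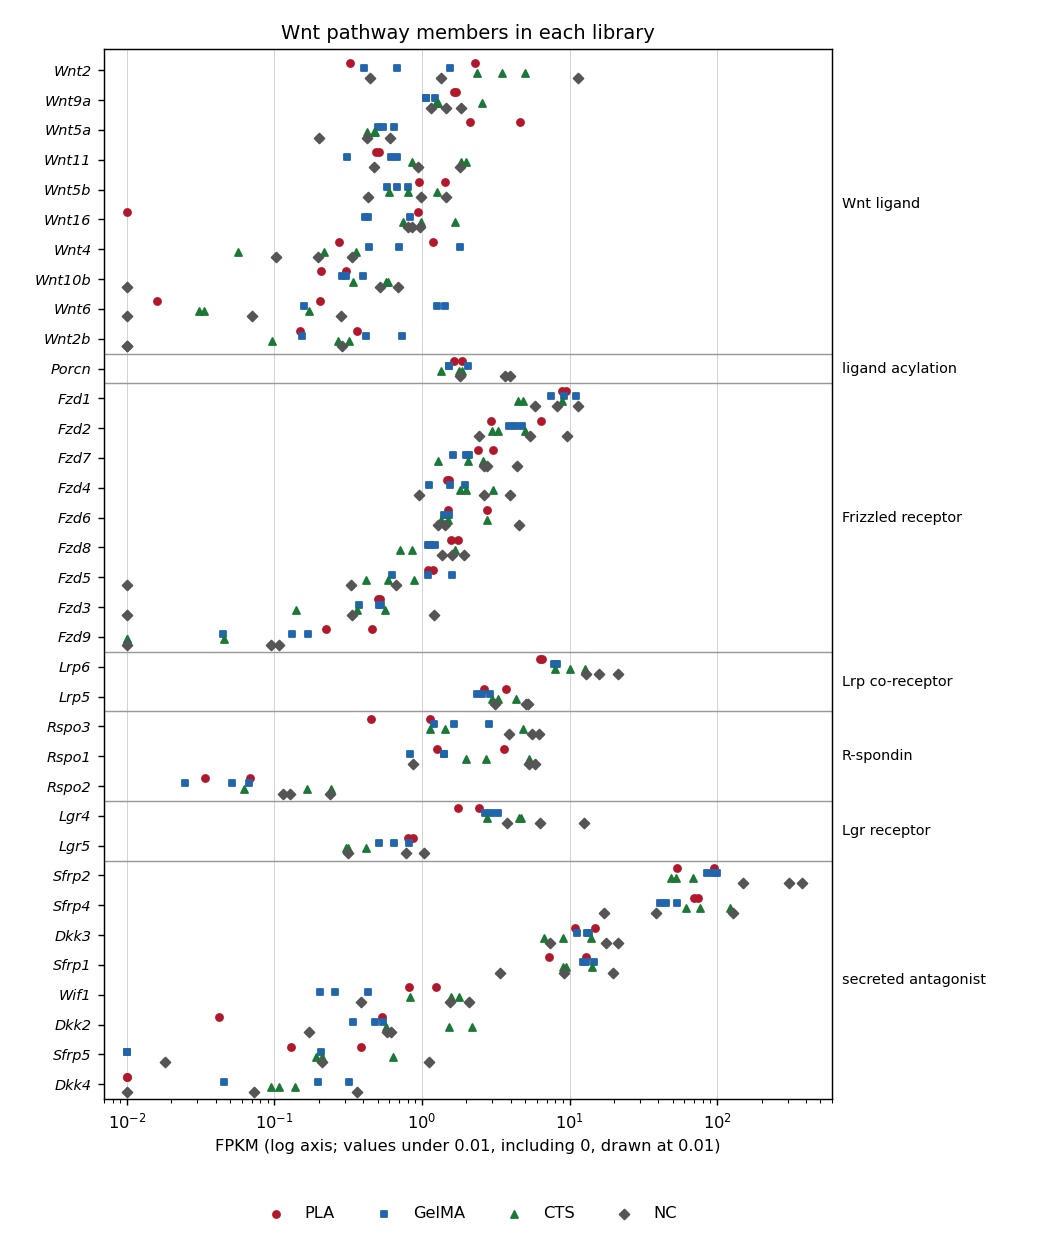
FPKM of the 35 genes that passed the filter on low counts, on a log axis, with each point a library (PLA circles, GelMA squares, CTS triangles, NC diamonds). Genes are ordered by role and, within a role, by mean FPKM. Sfrp2 and Sfrp4 lie at the right end, while most ligands lie near or below 1 FPKM.

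The summed level of the 48 genes was 255 and 190 FPKM in PLA, 206 to 227 FPKM in GelMA and 186 to 289 FPKM in CTS, against 236, 643 and 454 FPKM in NC. NC replicates 2 and 3 were therefore above all scaffold libraries, whereas NC replicate 1 lay within their range. The makeup of the antagonists also differed. The ratio of Sfrp2 to Sfrp4 FPKM, a quantity chosen after the values were seen and not tested, was 1.29 and 0.774 in PLA, 1.85, 1.89 and 2.34 in GelMA and 0.635, 0.849 and 0.567 in CTS, against 8.72, 2.95 and 7.98 in NC. Sfrp2 thus led Sfrp4 in NC and GelMA and trailed it in CTS, and the 2 PLA libraries fell on either side of equality.

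**Figure D2:**
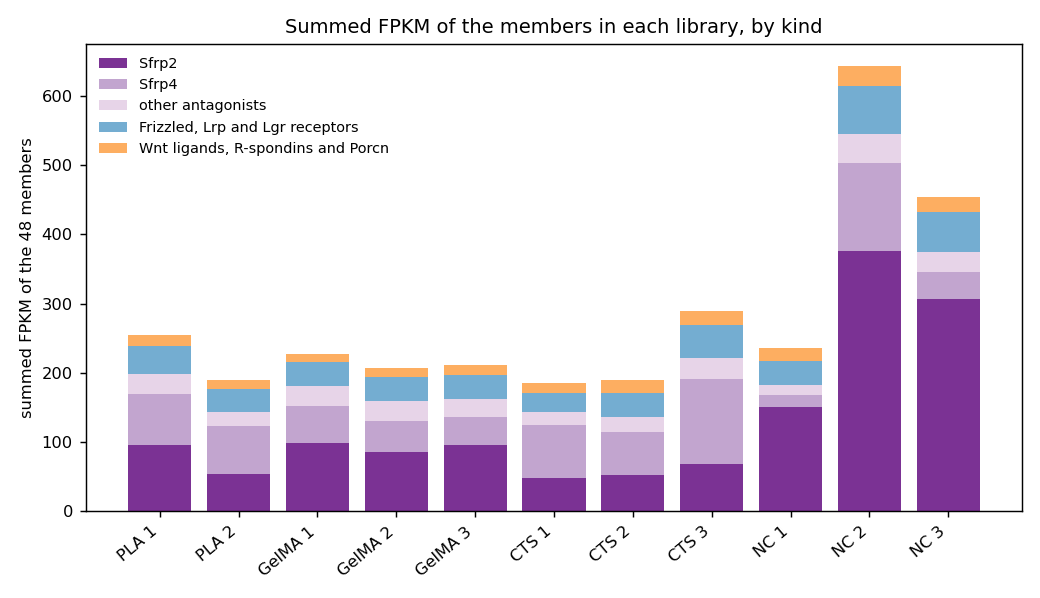
Summed FPKM of the 48 genes in each library (bars, 1 per library), divided into Sfrp2, Sfrp4, the other antagonists, the receptors, and the ligands with R-spondins and Porcn. Ligands, R-spondins and Porcn form the thinnest segment in every library but NC replicate 1, and the Sfrp2 segment is tallest in NC replicate 2 (375 FPKM).

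For the tests, 35 of the 48 genes passed the filter on low counts, namely 10 ligands, 9 Frizzled receptors, Lrp5 and Lrp6, Rspo1 to Rspo3, Lgr4 and Lgr5, Porcn and 8 antagonists. The 13 below it were Wnt1, Wnt3, Wnt3a, Wnt7a, Wnt7b, Wnt8a, Wnt9b, Wnt10a, Fzd10, Lgr6, Rspo4, Notum and Sost, each with 1 to 48 counts over all 11 libraries. Differences are called here where edgeR's quasi-likelihood test gave a p under 0.05 after Benjamini-Hochberg adjustment over the 18049 genes tested and the fitted log2 fold change exceeded 1 in absolute value.

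Few of these genes were called in any comparison. In PLA against NC, 1 of 35 was higher (Wnt5a), where 8.32% of all genes were, and 2 were lower (Lrp6 and Sfrp2), where 4.01% of all genes were. With scaling by library size alone, 4 were lower. GelMA against NC gave 0 higher genes, against 5.03% of all genes, and 5 lower ones (Lgr4, Lrp5, Lrp6, Sfrp2 and Wif1), against 3.21% of all genes. In CTS against NC 0 were higher, with a background of 0.155%, and 1 was lower (Sfrp2), with a background of 0.0222%, or 4 genes in all. PLA against GelMA gave 2 higher genes (Wif1 and Wnt5a; background 4.61%) and 0 lower ones (background 1.47%), and PLA against CTS gave 2 higher genes (Lgr5 and Wnt5a; background 6.42%) and 0 lower ones (background 3.53%). In CTS against GelMA the counts were 0 higher (background 0.416%) and 0 lower (background 1.32%), while 4 higher and 2 lower genes had an unadjusted p under 0.05 and DESeq2 called 2 higher and 0 lower. In the other directions where edgeR called 0, DESeq2 called 0 as well, and unadjusted p values under 0.05 numbered 1 for GelMA above NC, 0 for CTS above NC, 1 for PLA below GelMA and 0 for PLA below CTS. Dropping the fold threshold added no gene to these counts, at 3 of 35 in PLA against NC (background 15.6%), 5 in GelMA against NC (10.7%), 1 in CTS against NC (0.188%), 2 in PLA against GelMA (9.19%), 2 in PLA against CTS (14.0%) and 0 in CTS against GelMA (2.08%). A single test over all 4 groups called 3 genes (Wnt5a, Sfrp2 and Lrp6), where 18.8% of all genes were called. The comparisons with NC share its libraries, and those with PLA share the PLA libraries, so their calls are not independent.

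Beyond the calls, the fitted differences leaned to one side. In GelMA against NC, 28 of 35 log2 fold changes were below 0, with a median of -0.74 over the 35 and -0.05 over all genes. CTS against NC had 28 below 0, with a median of -0.43 and -0.02 over all genes. In PLA against NC the split was 16 above and 19 below 0. In PLA against GelMA 30 were above 0, with a median of 0.58, and in PLA against CTS 24 were, with a median of 0.46. These last counts depended on scaling, since with library size alone 20 were above 0 in PLA against GelMA and 17 in PLA against CTS, while the median of all genes moved by -0.54 and -0.48. The comparisons with NC depended on NC replicate 2. Without it, 21 of 35 were below 0 in GelMA against NC, with a median of -0.28, and 21 in CTS against NC, with a median of -0.23. In PLA against NC the split turned to 23 above and 12 below 0, with a median of 0.35.

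Markers of blood cells differed between groups as well. In GelMA against NC, 8 of 9 macrophage, 5 of 5 B cell and 5 of 5 T cell markers were called higher (background 5.03%). There 3 of 7 neutrophil and 3 of 4 eosinophil markers were lower (background 3.21%). In PLA against NC, 4 of 9 macrophage, 1 of 5 B cell, 5 of 5 T cell and 1 of 7 neutrophil markers were called higher (background 8.32%). Lower there were 3 of 7 neutrophil and 3 of 4 eosinophil markers (background 4.01%). In CTS against NC, 1 of 9 macrophage markers was called higher (background 0.155%). Of the B cell and T cell markers 0 were called there, although all 5 of each had an unadjusted p under 0.05. The macrophage markers summed to 885 and 904 CPM in PLA, 1324 to 1515 CPM in GelMA and 597 to 710 CPM in CTS, against 272 to 325 CPM in NC. The B cell markers summed to 26.9 and 43.0 CPM in PLA, 232 to 337 CPM in GelMA and 66.1 to 102 CPM in CTS, against 17.8 to 36.6 CPM in NC. GelMA thus had the highest sums of both lists. The neutrophil markers summed to 8652 and 9223 CPM in PLA, 4755 to 11687 CPM in GelMA and 26695 to 45736 CPM in CTS, against 8879 to 66518 CPM in NC, and the eosinophil markers to 12.5 and 20.7 CPM in PLA, 28.5 to 45.5 CPM in GelMA and 140 to 756 CPM in CTS, against 73.1 to 585 CPM in NC. No marker of these lists was at 0 in all libraries, and the part of these cells in the differences of the family was not tested.

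**Figure D3:**
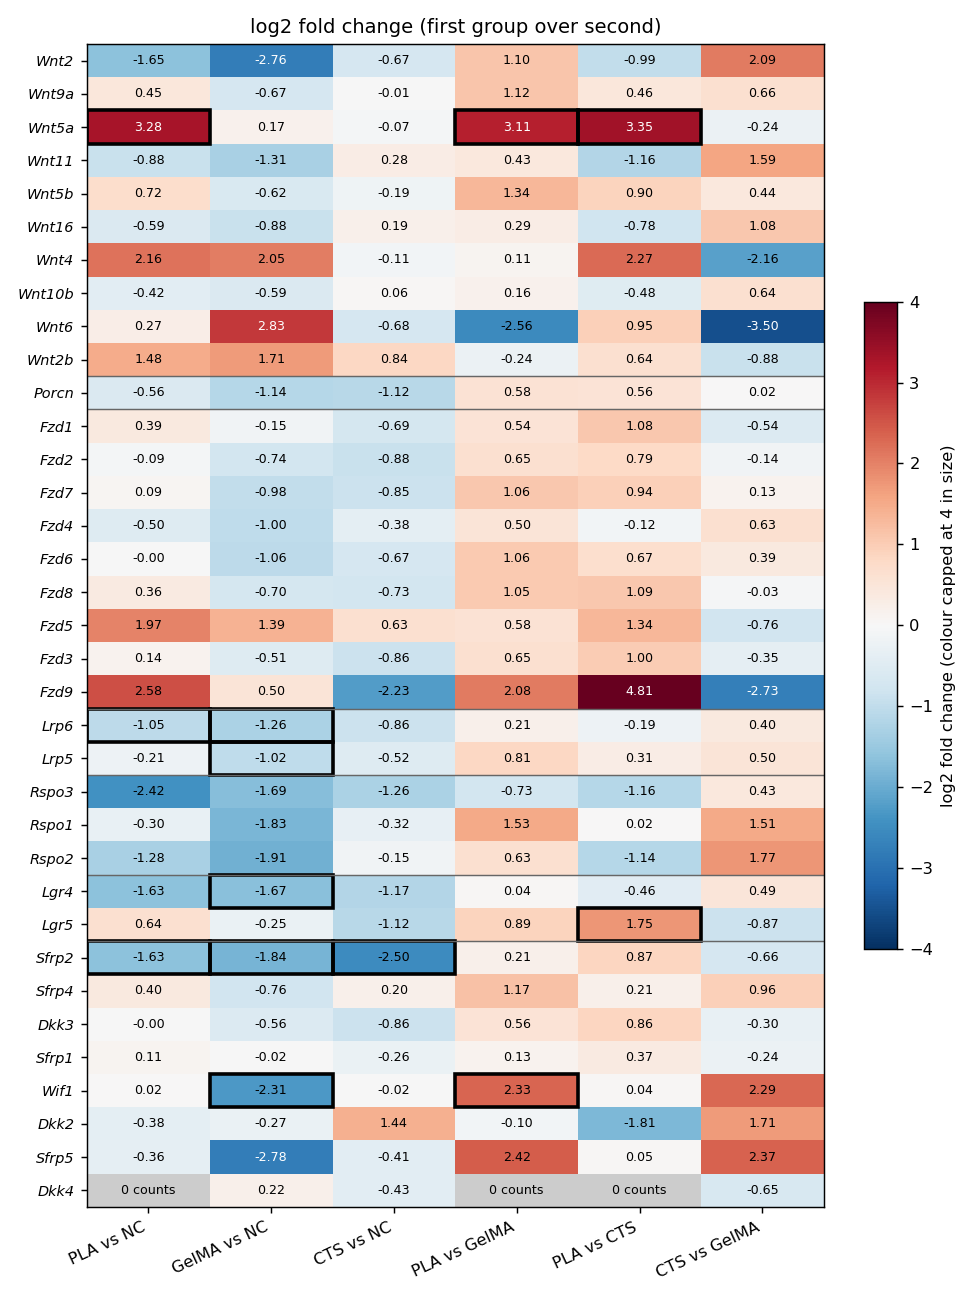
Log2 fold change of each of the 35 tested genes in the 6 comparisons, with the first-named group over the second. Black frames mark the 13 calls, and grey cells mark comparisons with a group that held 0 counts, which have no fold. The frames of Wnt5a lie in the 3 comparisons that involve PLA, and those of Sfrp2 in the 3 comparisons with NC.

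Among the ligands, Wnt5a, which signals mainly without β-catenin through Frizzled and Ror receptors, was the one gene of the 48 called in every comparison of PLA. It stood at 47.5 and 22.0 CPM in PLA, against 4.51, 3.95 and 3.59 CPM in GelMA, 3.57, 3.13 and 3.51 CPM in CTS and 1.53, 6.05 and 3.14 CPM in NC. Both PLA libraries were above all 9 others, although they differed from each other by more than the other scaffold libraries did. The log2 fold change of PLA was 3.28 over NC (SE 0.50, adjusted p = 0.00183), 3.11 over GelMA (SE 0.49, adjusted p = 0.00431) and 3.35 over CTS (SE 0.50, adjusted p = 0.00209). Wnt5a made up 44.5% and 21.7% of the summed ligand FPKM in PLA, 5.79% to 10.7% in GelMA, 4.02% to 5.18% in CTS and 3.31% to 5.75% in NC. Leaving out PLA replicate 1 took the call over GelMA away (log2 fold change 2.45, adjusted p = 0.0626), and a fit of PLA and NC alone took away the call over NC (adjusted p = 0.0682). All other single libraries could be left out without losing a Wnt5a call.

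The promoter of Wnt5a is shown because the gene had the smallest p of the 35 in the test over the 4 groups (adjusted p = 0.00112). The 250 bases before its start lie at chr16:3703415-3703664 on the plus strand of GRCr8, as RefSeq annotates it, and capitals mark CG pairs. The files themselves were made on another assembly, mRatBN7.2, and give no positions.
Wnt5a promoter: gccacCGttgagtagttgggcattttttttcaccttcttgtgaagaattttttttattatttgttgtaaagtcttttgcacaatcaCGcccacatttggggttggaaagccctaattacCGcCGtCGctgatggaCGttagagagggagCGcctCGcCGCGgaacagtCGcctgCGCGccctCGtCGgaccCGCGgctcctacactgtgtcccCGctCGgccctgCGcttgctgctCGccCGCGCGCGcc
This window held 25 CG pairs and 57.2% G or C, and 89.6% of 27457 rat promoters of the same length held fewer CG pairs.

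The level of Wnt5a was set beside those of cell type markers. The 8 markers of pericytes and smooth muscle summed to 805 and 531 CPM in PLA, 225 to 327 CPM in GelMA, 164 to 352 CPM in CTS and 114 to 360 CPM in NC. Within PLA, the library with the higher sum also had the higher Wnt5a level. This order was not particular to these markers. The osteoblast, osteocyte, endothelial, leukocyte and keratinocyte sums were also higher in PLA replicate 1, and those of the other cell type lists in PLA replicate 2. Of these 8 markers, PLA was called higher for 3 against NC (background 8.32%), for 1 against GelMA (4.61%) and for 1 against CTS (6.42%). Of the 8, 0 were at 0 in all libraries. The fibroblast markers summed to 25745 and 38985 CPM in PLA and to 232250 CPM in NC replicate 2, where Wnt5a was 6.05 CPM. The part of these cells in the Wnt5a result was not tested.

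**Figure D4:**
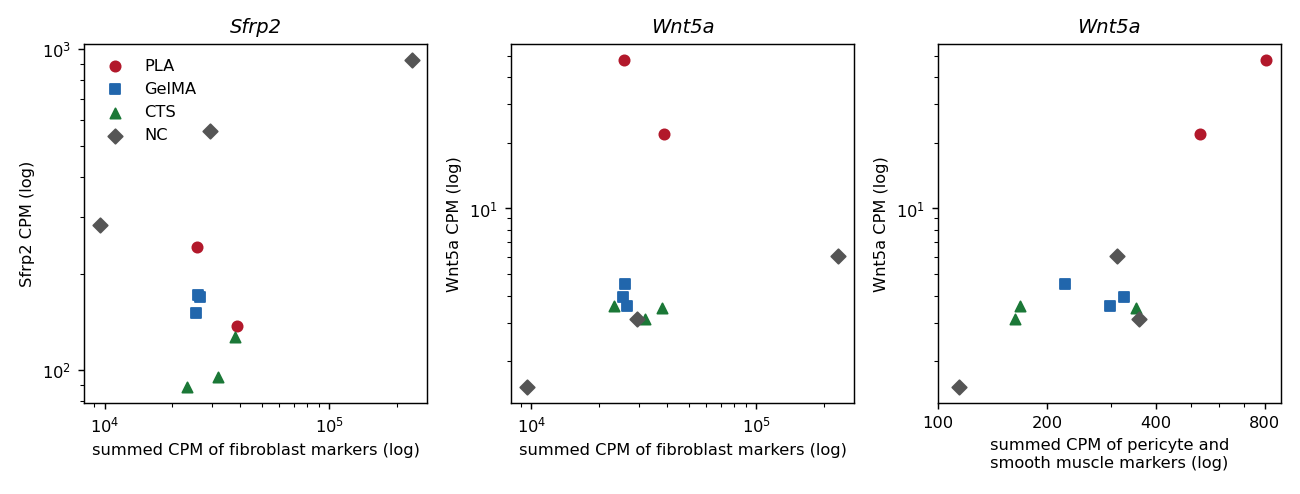
Sfrp2 CPM against the summed CPM of 10 fibroblast markers (left), and Wnt5a CPM against the same sum (middle) and against that of 8 pericyte and smooth muscle markers (right), on log axes, with 1 point per library. NC replicate 1 has the lowest fibroblast sum (9516 CPM) and an Sfrp2 level above all scaffold libraries, and the 2 PLA libraries have the highest Wnt5a levels and pericyte and smooth muscle sums.

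The most abundant ligand, Wnt2, which acts through β-catenin, varied widely within groups. Its level was 3.15 and 22.5 CPM in PLA, 2.67, 4.64 and 10.5 CPM in GelMA and 16.7, 34.8 and 24.6 CPM in CTS, against 3.22, 108 and 9.46 CPM in NC. CTS lay above GelMA in every library, but the difference was not called (log2 fold change 2.09, adjusted p = 0.402). The ligand with the highest FPKM differed between libraries. It was Wnt5a and Wnt2 in the 2 PLA libraries, Wnt6, Wnt6 and Wnt4 in GelMA, Wnt2 in all 3 CTS libraries, and Wnt9a, Wnt2 and Wnt5b in NC.

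The other 8 tested ligands were not called in any comparison of all libraries, and their FPKM ran from 0 to 2.54. Without NC replicate 2, Wnt9a was called higher in PLA than in GelMA (log2 fold change 1.12, SE 0.36, adjusted p = 0.0456), Wnt11 higher in CTS than in GelMA (log2 fold change 1.59, SE 0.47, adjusted p = 0.0480), and Wnt2b higher in PLA and in GelMA than in NC (adjusted p = 0.0230 and 0.0220). Wnt2b had 20 and 8 counts in PLA and 8, 22 and 40 in GelMA, against 0, 14 and 0 in NC, so that without the library of 14 counts NC stood at 0. Wnt4 and Wnt6, described after their values were seen, had the widest contrasts. Wnt4 was 6.47 and 1.5 CPM in PLA and 1.62, 2.64 and 6.80 CPM in GelMA, against 1.36, 0.542 and 0.766 CPM in NC, so that all libraries of both scaffolds were above NC. These differences did not pass the threshold (adjusted p = 0.128 for PLA and 0.136 for GelMA). Wnt6 had 76, 87 and 10 counts in GelMA, 13 and 1 in PLA, 2, 2 and 10 in CTS and 0, 4 and 14 in NC. Wnt9a, Wnt5b, Wnt11, Wnt16, Wnt10b and Wnt2b had mean FPKM of 0.254 to 1.47.

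Ligands below the filter were at most sporadic. Wnt10a had 4, 30 and 7 counts in GelMA and 1 count in all other libraries together. Wnt7a had 5 and 17 counts in PLA and 4 in CTS replicate 1, and Wnt9b had 15 and Wnt8a 6 counts in PLA replicate 1. For Wnt1, Wnt3, Wnt3a and Wnt7b, no library had more than 17 counts. A library with 0 counts still allows up to 3, which corresponds to 0.0876 to 0.136 CPM and covers counting error alone. Porcn, without which Wnt ligands are not secreted, was present throughout, at 4.48 and 4.04 CPM in PLA, 2.52, 3.46 and 2.57 CPM in GelMA, 2.33, 3.22 and 3.11 CPM in CTS and 6.58, 9.22 and 3.10 CPM in NC, and it was not called.

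Of the 9 Frizzled receptors tested, 0 were called in any comparison by edgeR. At an unadjusted p under 0.05, 2 were lower in GelMA than in NC, 2 lower in CTS than in NC, 2 higher in PLA than in GelMA and 4 higher in PLA than in CTS, where DESeq2 called 1, 0, 2 and 3. Fzd1, the most abundant, was 53.5 and 50.7 CPM in PLA, 42.3, 36.1 and 29.3 CPM in GelMA, 18.0, 19.6 and 36.5 CPM in CTS and 24.3, 62.1 and 33.2 CPM in NC. Both PLA libraries were above all GelMA and CTS libraries, but within the range of NC. In PLA against GelMA all 9 Frizzled fold changes were above 0, with a median of 0.65, although 7 of 9 were with library size alone. In PLA against CTS 8 of 9 were above 0, with a median of 1.00, and 8 of 9 with library size alone. Without NC replicate 2, Fzd6, Fzd7 and Fzd8 were called higher in PLA than in GelMA, and Fzd1 and Fzd8 higher in PLA than in CTS. The shares of all genes called in these 2 directions were then 7.2% and 8.88%, against 4.61% and 6.42% with all libraries. NC is in neither comparison. The log2 fold changes over GelMA hardly moved, at 1.06 for Fzd6 and 1.06 for Fzd7 both with and without this library. Leaving out this library also moved the Frizzled median in GelMA against NC to 0.07, with 6 of 9 above 0, against -0.70 and 2 of 9 with all libraries. In the fit of all libraries, the adjusted p of PLA over GelMA was 0.0770 for Fzd8 and 0.0739 for Fzd7. Fzd2, Fzd3, Fzd4, Fzd5 and Fzd9 ran from 0 to 9.60 FPKM, and Fzd10 had 4 counts in all.

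The co-receptor Lrp6, which couples Wnt binding to β-catenin stabilisation, was lower in the scaffold groups. It was 72.3 and 75.5 CPM in PLA, 64.2, 63.2 and 64.4 CPM in GelMA and 65.6, 83.0 and 105 CPM in CTS, against 110, 177 and 174 CPM in NC. Every scaffold library was below every NC library. The log2 fold change was -1.26 in GelMA (SE 0.22, adjusted p = 0.00622) and -1.05 in PLA (SE 0.25, adjusted p = 0.0174), and that of CTS, -0.86, did not pass (adjusted p = 0.143). The GelMA call held without each of the 11 libraries in turn. The PLA call was lost without either PLA library (adjusted p = 0.126 and 0.112 without replicates 1 and 2) and without NC replicate 2, where the log2 fold change was -0.94 with an adjusted p of 0.0114. RefSeq's table matched 31 of the 48 genes to a promoter, and Lrp6 was not among them.

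Lrp5, the second such co-receptor, whose loss in people gives low bone mass, followed with a smaller difference. Its level was 24.1 and 17.2 CPM in PLA, 11.4, 10.7 and 13.2 CPM in GelMA and 14.1, 15.3 and 20.6 CPM in CTS, against 15.1, 32.8 and 23.6 CPM in NC. GelMA was below NC in every library, whereas PLA and CTS overlapped with it. GelMA was called lower (log2 fold change -1.02, SE 0.29, adjusted p = 0.0486), and this call lay close to both thresholds. It was kept without CTS replicate 3 or NC replicate 1, and lost without any of the other 9 libraries (adjusted p 0.0601 to 0.142, log2 fold change -1.17 to -0.72).

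**Figure D5:**
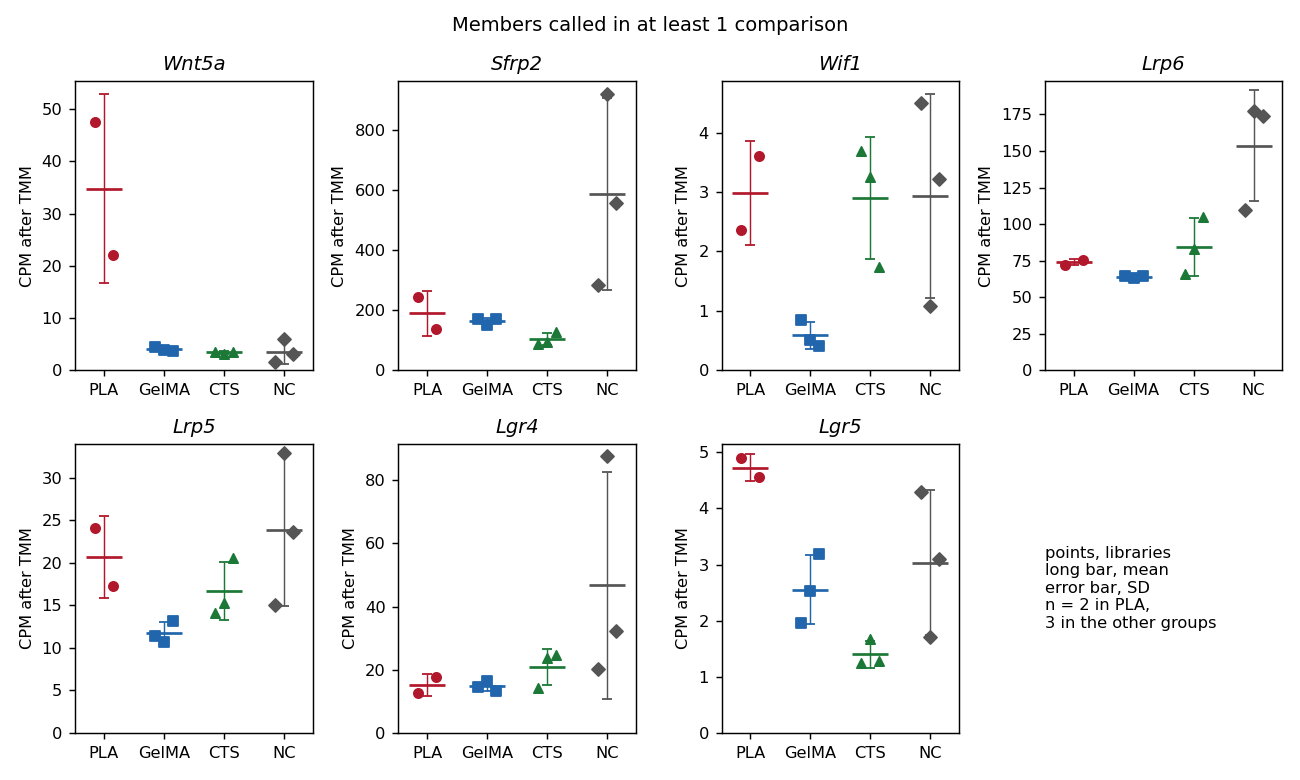
CPM after TMM of the 7 genes called in at least 1 comparison (points, libraries; long bars, mean; error bars, SD; n = 2 in PLA and 3 in the other groups; each axis starts at 0). Wnt5a is high in PLA alone, Sfrp2 and Lrp6 are higher in NC than in every scaffold library, and Wif1 is low in all 3 GelMA libraries.

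Lgr4, a receptor for R-spondins, was 12.6 and 17.6 CPM in PLA, 14.4, 16.5 and 13.4 CPM in GelMA and 14.2, 23.6 and 24.5 CPM in CTS, against 20.3, 87.7 and 32.3 CPM in NC. PLA and GelMA were below NC in every library, while CTS overlapped with it. The value of NC replicate 2 was 87.7 CPM, the highest of the 11. GelMA was called lower (log2 fold change -1.67, SE 0.47, adjusted p = 0.0484). Without NC replicate 2 the log2 fold change was -0.84, and the call was kept only without NC replicate 1, since leaving out any of the remaining 9 libraries gave adjusted p values of 0.0555 to 0.151.

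Lgr5, its homologue and a marker of stem cells in intestine and hair follicle, was 4.89 and 4.56 CPM in PLA, 1.95, 2.52 and 3.18 CPM in GelMA, 1.24, 1.68 and 1.28 CPM in CTS and 4.29, 1.72 and 3.10 CPM in NC. Both PLA libraries were above the other 9. PLA was called higher than CTS (log2 fold change 1.75, SE 0.44, adjusted p = 0.0256) and not than GelMA or NC (adjusted p = 0.235 and 0.362). The call was lost without either PLA library, any CTS library or GelMA replicate 2 (adjusted p 0.0503 to 0.133). Lgr6 had 48 counts in all, 20 of them in NC replicate 1.

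R-spondins, the ligands of Lgr receptors, were not called by edgeR in any comparison, although all 3 were lower in GelMA than in NC at an unadjusted p under 0.05 and by DESeq2. Rspo3, described after its values were seen, was 0.788 and 1.98 CPM in PLA, 1.95, 1.46 and 3.45 CPM in GelMA and 1.42, 1.77 and 6.06 CPM in CTS, against 5.05, 9.40 and 7.77 CPM in NC. PLA and GelMA were below NC in every library, but with log2 fold changes of -2.42 and -1.69 the adjusted p values were 0.0547 and 0.108. Rspo1 and Rspo2 ran from 0.0249 to 5.78 FPKM, and Rspo4 had 25 counts in all. Without NC replicate 2, Rspo1 was called lower in GelMA than in NC (log2 fold change -2.27, SE 0.49, adjusted p = 0.00770) and higher in PLA than in GelMA (log2 fold change 1.53, SE 0.49, adjusted p = 0.0476).

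Among the antagonists, Sfrp2 was the one gene called lower than NC in all 3 scaffold groups. Its level was 243 and 137 CPM in PLA, 171, 151 and 169 CPM in GelMA and 88.8, 95.5 and 127 CPM in CTS, against 284, 923 and 558 CPM in NC. Every scaffold library was below every NC library, and every CTS library was below the PLA and GelMA ones. The log2 fold change from NC was -1.63 in PLA (SE 0.44, adjusted p = 0.0317), -1.84 in GelMA (SE 0.38, adjusted p = 0.0150) and -2.50 in CTS (SE 0.39, adjusted p = 0.0474). The difference of CTS from PLA or GelMA was not called, with an adjusted p of 0.190 for PLA against CTS and 0.412 for CTS against GelMA.

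The Sfrp2 calls held without NC replicate 2, at log2 fold changes of -1.15 in PLA (adjusted p = 0.0342), -1.36 in GelMA (adjusted p = 0.0122) and -2.02 in CTS (adjusted p = 0.0320). Other libraries mattered more. The PLA call was lost without PLA replicate 1 or 2 or NC replicate 3 (adjusted p = 0.0732, 0.234 and 0.0540), the GelMA call without any GelMA library (adjusted p 0.0520 to 0.0677), and the CTS call without any library other than NC replicates 1 and 2 (adjusted p 0.0662 to 0.194). Within NC and within CTS, libraries with a higher sum of fibroblast markers also had more Sfrp2, whereas the PLA libraries had the reverse order. In GelMA, replicate 3 had the highest sum (26608 CPM) and replicate 1 the most Sfrp2 (171 CPM). Across groups, NC replicate 1 had the lowest sum, 9516 CPM, and an Sfrp2 level of 284 CPM, while the scaffold libraries had sums of 23377 to 38985 CPM and at most 243 CPM of Sfrp2. None of the 10 fibroblast markers was at 0 in all libraries, and edgeR called 0 of the 10 in any comparison with NC, while 2 were lower in GelMA than in NC at an unadjusted p under 0.05 and by DESeq2. The median log2 fold change of these 10 markers from NC was -1.10 in PLA, -1.53 in GelMA and -1.26 in CTS, the same direction as Sfrp2. These medians include NC replicate 2, whose fibroblast sum was 232250 CPM, against 9516 and 29417 CPM in the other NC libraries. They were not calculated without that library. The part of fibroblasts in the Sfrp2 result was not tested.

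The Sfrp2 promoter is printed since Sfrp2 was the most abundant gene of the family and differed among the 4 groups (adjusted p = 0.00440). The window is chr2:171387286-171387535 on the plus strand of GRCr8, again the 250 bases before the RefSeq start with CG pairs in capitals.
Sfrp2 promoter: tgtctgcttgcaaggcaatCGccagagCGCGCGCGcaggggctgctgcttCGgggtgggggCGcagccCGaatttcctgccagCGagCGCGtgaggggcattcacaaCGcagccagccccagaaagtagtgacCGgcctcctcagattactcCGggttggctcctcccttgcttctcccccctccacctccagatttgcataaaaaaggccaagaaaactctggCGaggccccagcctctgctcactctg
It held 15 CG pairs and 62.4% G or C, and 72.1% of all promoters held fewer CG pairs. The 31 promoters of the family that could be matched had a median of 21 CG pairs and 65.6% G or C, against 6 and 52.0% over all promoters. The core binding letters of the TCF/LEF factors that act with β-catenin, CTTTGAT or ATCAAAG on the other strand, were present in 0 of the 31 windows and in 874 of all 27457 (3.18%), which describes these letters in this window alone.

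Wif1, which binds Wnt ligands outside the cell, was lowest in GelMA. It was 2.36 and 3.61 CPM in PLA, 0.841, 0.516 and 0.409 CPM in GelMA, 3.69, 3.26 and 1.74 CPM in CTS and 4.50, 1.08 and 3.22 CPM in NC. Every GelMA library was below every other library. GelMA was called lower than NC (log2 fold change -2.31, SE 0.59, adjusted p = 0.0340), PLA was called higher than GelMA (log2 fold change 2.33, SE 0.63, adjusted p = 0.0445), and CTS was above GelMA by a log2 fold change of 2.29 that did not pass (adjusted p = 0.0749). Without NC replicate 2 all 3 passed, with adjusted p of 0.00337, 0.00724 and 0.00954. The call over NC was kept without NC replicate 2 or CTS replicate 2 or 3 and lost without any of the other 8 libraries (adjusted p 0.0507 to 0.126), and that of PLA over GelMA was kept without NC replicate 1 or 2 and lost without any of the other 9 (adjusted p 0.0521 to 0.245).

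Sfrp4, the second gene by FPKM and described after its values were seen, was 321 and 303 CPM in PLA, 158, 136 and 123 CPM in GelMA, 238, 192 and 381 CPM in CTS and 55.5, 534 and 119 CPM in NC. The NC libraries spanned the range of all others, and no comparison was called. Without NC replicate 2, which held the 534 CPM, PLA was called higher than NC (log2 fold change 1.84, SE 0.39, adjusted p = 0.00787) and than GelMA (log2 fold change 1.17, SE 0.34, adjusted p = 0.0397). Dkk3 and Sfrp1 ran from 6.69 to 21.4 and from 3.39 to 19.7 FPKM and were not called. Dkk2, Sfrp5 and Dkk4 stayed at or under 2.18 FPKM, and Dkk4 had 0 counts in both PLA libraries, 2 to 14 in GelMA, 4 to 6 in CTS and 0 to 13 in NC.

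Sost, which encodes the osteocyte protein sclerostin, had 1 count in GelMA replicate 1, 1 in CTS replicate 3 and 0 in the other 9 libraries. Notum, which removes the lipid from Wnt ligands, had 1 count in GelMA replicate 1 and 4 in NC replicate 3, and 0 elsewhere. Neither allows a comparison at this depth. Most other osteocyte markers of the list of 6 were low too. Mepe was at 0 in 6 of the 11 libraries and at most 0.424 CPM, Dmp1 was 0.118 to 2.07 CPM, Phex 0 to 4.93 CPM and Fgf23 0 to 8.13 CPM. Pdpn, which other cell types also express, was 157 and 116 CPM in PLA, 48.3 to 99.8 CPM in GelMA, 36.5 to 76.7 CPM in CTS and 23.0 to 324 CPM in NC.

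Downstream of these genes, the other components of the pathway were followed by 3 lists. For all 3, the shares of all genes called higher and lower were 8.32% and 4.01% in PLA against NC. They were 5.03% and 3.21% in GelMA against NC, and 0.155% and 0.0222% in CTS against NC. PLA against GelMA had 4.61% and 1.47%, PLA against CTS 6.42% and 3.53%, and CTS against GelMA 0.416% and 1.32%. Of 39 intracellular transducers tested, 2 were higher and 1 lower in PLA than in NC, 1 higher and 0 lower in GelMA than in NC, and 0 in CTS than in NC (2 higher and 5 lower at an unadjusted p under 0.05, and 1 and 0 by DESeq2). PLA against GelMA gave 2 higher and 1 lower, PLA against CTS 2 higher and 2 lower, and CTS against GelMA 0 (1 higher and 3 lower unadjusted, and 0 and 1 by DESeq2). Dvl2, a Dishevelled protein that relays the signal from Frizzled, was called in all 3 comparisons of PLA, with 51.6 and 52.7 CPM in PLA and 11.3 to 18.1 CPM in the other 9 libraries. Its log2 fold change in PLA was 1.72 over NC (SE 0.20), 1.88 over GelMA (SE 0.20) and 2.02 over CTS (SE 0.20), with adjusted p of 0.000442, 0.000700 and 0.000220. Tcf7, a transcription factor of the pathway that T cells also express, was 22.1 and 32.9 CPM in PLA, 93.2 to 122 CPM in GelMA, 10.8 to 40.4 CPM in CTS and 4.79 to 9.76 CPM in NC, called higher in PLA and GelMA than in NC and lower in PLA than in GelMA. It moved with the 5 T cell markers in the table, whose sum was 142 and 199 CPM in PLA, 473 to 515 CPM in GelMA, 48.8 to 178 CPM in CTS and 41.6 to 46.7 CPM in NC, and the part of T cells in it was not tested. Cby1, an inhibitor of β-catenin, averaged 1.58 ± 0.228 CPM in PLA (SD, n = 2) and was called lower than in CTS (5.19 ± 0.0530 CPM) and NC (7.91 ± 3.56 CPM; n = 3 each). Frat2, which binds the kinase Gsk3, averaged 22.1 ± 0.833 CPM in PLA and 9.40 ± 0.898 CPM in GelMA. Tcf7l2, a transcription factor that partners β-catenin, averaged 69.4 ± 12.1 CPM in PLA and 23.4 ± 11.1 CPM in CTS, and Tle4, a co-repressor of such factors, 48.8 ± 8.38 CPM in PLA and 105 ± 17.5 CPM in CTS.

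Feedback and target genes formed the next list, with the same backgrounds. Of its called genes, Tcf7 is also in the list of transducers and Rnf43 in the list that follows. Calls of Tcf7 and Rnf43 are therefore counted in both of their lists. Of 17 tested, 2 were higher in PLA than in NC (Cd44 and Tcf7), 2 higher and 1 lower in GelMA than in NC (Rnf43 and Tcf7, and Apcdd1), 1 lower in PLA than in GelMA (Tcf7) and 1 higher in PLA than in CTS (Cd44), with 0 in the comparisons of CTS with NC (2 higher and 4 lower unadjusted, and 1 and 0 by DESeq2) and with GelMA (0 and 4 unadjusted, and 0 and 2 by DESeq2). Cd44, a cell surface receptor for hyaluronan, was 1725 and 1683 CPM in PLA and 689 to 998 CPM in the other 9 libraries, and Apcdd1, a membrane inhibitor of Wnt, averaged 10.1 ± 0.847 CPM in GelMA and 43.5 ± 34.9 CPM in NC. Axin2, the feedback gene most often read as a measure of β-catenin signaling and chosen here after its values were seen, was 8.87 and 7.05 CPM in PLA, 10.1, 9.86 and 11.5 CPM in GelMA, 4.81, 5.28 and 7.15 CPM in CTS and 9.42, 8.45 and 7.85 CPM in NC. It was not called in any comparison, although every CTS library was below every GelMA and NC library, and both PLA libraries were below every GelMA library. Rnf43, a membrane ligase that removes Frizzled receptors, was 3.86 and 3.27 CPM in PLA, 9.93 to 10.2 CPM in GelMA, 0.664 to 2.52 CPM in CTS and 0.230 to 2.49 CPM in NC, with a log2 fold change in GelMA over NC of 2.99 (SE 0.71, adjusted p = 0.0271).

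Further receptors, secretion factors and extracellular modulators gave 3 higher and 1 lower of 21 tested in PLA against NC, 3 higher and 1 lower in GelMA against NC, 0 in CTS against NC (3 lower unadjusted and 1 by DESeq2), 1 higher in PLA against GelMA, 3 higher and 1 lower in PLA against CTS, and 1 higher and 1 lower in CTS against GelMA. Ptk7, a pseudokinase receptor that takes part in the polarity branch of the pathway, was 66.7 and 43.0 CPM in PLA, 26.6, 24.3 and 25.3 CPM in GelMA, 6.32, 6.20 and 9.05 CPM in CTS and 6.92, 8.40 and 12.1 CPM in NC. All PLA libraries were above GelMA, and all GelMA libraries were above CTS and NC. PLA was above NC by a log2 fold change of 2.58 (SE 0.29, adjusted p = 0.000310) and above GelMA by 1.11 (SE 0.28, adjusted p = 0.0366), and GelMA was above NC by 1.47 (SE 0.26, adjusted p = 0.00741). Against CTS, PLA was above by 2.93 (SE 0.29, adjusted p = 0.000195), and CTS was below GelMA by a log2 fold change of -1.82 (SE 0.26, adjusted p = 0.0136). Lrp4, a relative of Lrp5 and Lrp6 that binds sclerostin, was instead lower in the PLA and GelMA libraries than in the others, with 10.9 and 9.46 CPM in PLA, 7.38 to 8.59 CPM in GelMA, 26.6 to 42.8 CPM in CTS and 20.2 to 36.5 CPM in NC. It was called lower than NC in PLA (log2 fold change -1.56, SE 0.29, adjusted p = 0.00620) and in GelMA (log2 fold change -1.94, SE 0.26, adjusted p = 0.00163). Lrp4 was also called lower in PLA than in CTS (log2 fold change -1.81, adjusted p = 0.00347) and higher in CTS than in GelMA (log2 fold change 2.19, adjusted p = 0.00703). Igfbp4, a secreted binding protein of insulin-like growth factors, averaged 261 ± 57.0 CPM in PLA and 266 ± 42.7 CPM in GelMA, both called higher than the 85.8 ± 20.3 CPM in NC. Gpc4, a heparan sulfate proteoglycan of the cell surface, averaged 56.5 ± 18.5 CPM in PLA, called higher than in CTS (12.2 ± 2.05 CPM) and NC (16.8 ± 11.3 CPM). Trabd2b, a membrane protease that cleaves Wnt ligands, averaged 10.2 ± 2.51 CPM in PLA and was called higher than in CTS (3.14 ± 1.03 CPM).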

How the data were processed

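RNA from Cd45- cells was measured in 11 libraries, grouped by the labels as PLA, GelMA, CTS and NC. Per the submitters' notes, the authors used fastp, HISAT2, HTSeq and DESeq with the rat assembly mRatBN7.2, with versions not given in the sources used here. The deposited counts are raw reads per gene, and the deposited FPKM values equal count over gene length and library total for all 23781 genes (relative tolerance 0.001), so FPKM carries no composition factor. The counting was not stated to use strand.

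Counts were analysed with edgeR 4.0.16 in R 4.3.3. Genes passing filterByExpr (minimum count 10) were scaled by TMM and fitted in 1 robust quasi-likelihood model of all 11 libraries with group as its only term, because PLA has 2 libraries. Calls needed a p under 0.05 after Benjamini-Hochberg adjustment together with an absolute log2 fold change above 1, and the test over 4 groups an adjusted p under 0.05. SE is the log2 fold change divided by the square root of F. Levels are CPM after TMM, or FPKM.

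Genes called in any comparison were described in full. Sost, Notum, Wif1, Lrp5, Lrp6, Porcn and the gene with the highest mean FPKM of each role were given per library, and the others by range. The genes, lists and tests were chosen with earlier results of these data known. Alternatives were DESeq2 1.42.0, RLE factors, scaling by library size, no fold threshold, no filter, the 2 groups alone, the replicate number as a block, and each library left out. Replicate numbers did not pair the libraries. The steps were tested on simulated data. All 48 symbols were found in RefSeq's rat gene table (GRCr8), whose promoter table supplied the printed sequences. Figures were drawn with matplotlib 3.10.9.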

Additional observations from a re-analysis of the deposited data

How the results depend on the processing

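None of the 13 called fold changes changed sign under any alternative, whereas the family's median turned to -0.02 in PLA against CTS with library size alone (0.46 with TMM). The median of all genes moved as well, to -0.51 (-0.03 with TMM). RLE factors gave 6 lower in GelMA than NC (Fzd7 added), 3 higher in PLA than CTS (Fzd8 added) and 0 lower in CTS than NC (Sfrp2 lost). Of all 18049 genes, 659, 1212 and 1 were called in these directions, against 580, 1158 and 4 with TMM. The test over the 4 groups called 4 members with RLE factors (Fzd7 added). With library size alone, 4 genes were lower in PLA than NC (Lgr4 and Rspo3 added), 4 lower in GelMA than NC (Lrp5 lost), 1 higher in PLA than GelMA (Wif1 lost), 1 higher in PLA than CTS (Lgr5 lost) and 4 over the 4 groups (Lgr4 added). That scaling turned the split of calls over all genes, to 438 higher and 2312 lower in PLA against GelMA (832 and 266 with TMM), 688 and 2227 in PLA against CTS (1158 and 637), 1078 and 1531 in PLA against NC (1502 and 724), and 1216 and 425 in GelMA against NC (908 and 580). It gave 39 and 260 in CTS against GelMA (75 and 239). Without the filter, 3 were lower in PLA than NC (Rspo3 added), 4 lower in GelMA than NC (Lgr4 lost, adjusted p = 0.0570) and 1 higher in PLA than GelMA (Wif1 lost, adjusted p = 0.0565). DESeq2 called 4 lower in PLA than NC, 11 lower in GelMA than NC, 6 higher in PLA than GelMA, 6 higher in PLA than CTS, 2 higher in CTS than GelMA, and 14 over the 4 groups. With the 2 groups compared alone, 0 were higher and 0 lower in PLA than NC, 1 lower in GelMA than NC, 0 lower in CTS than NC, 9 higher in PLA than GelMA, 4 higher and 1 lower in CTS than GelMA. For DESeq2, no filter, the 2 groups alone and the replicate block, the share of all genes called was not counted. Nor was it counted for the test over the 4 groups under any alternative. All these counts therefore have no background and are not read as a result about the family. The cause of these shifts was not tested.

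With the replicate block, 0 were lower in PLA than NC, 2 lower in GelMA than NC, 0 lower in CTS than NC, and 1 higher in PLA than GelMA. In PLA against CTS the block lost Lgr5 (adjusted p = 0.0607) and gained Fzd8. Same-numbered libraries did not deviate together (correlations -0.108 to 0.118 over 15 pairs, 1 of them over 0.1, against -0.191 to 0.258 over 30 other pairs), so the numbers were not taken as pairs.

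Leaving out 1 library at a time, the counts ran from 1 to 3 higher and 0 to 4 lower in PLA than NC, 0 to 1 higher and 1 to 6 lower in GelMA than NC, 0 to 2 lower in CTS than NC, 0 to 8 higher in PLA than GelMA, 1 to 4 higher and 0 to 1 lower in PLA than CTS, 0 to 2 higher in CTS than GelMA, and 3 to 9 over the 4 groups. The 8 genes higher in PLA than GelMA came without NC replicate 2, where 7.2% of all genes were. For the other libraries left out, the share of all genes was not counted. These ranges are therefore not read as a result about the family. Wnt5a was kept over NC and CTS, and Lrp6 in GelMA against NC, without each of the 11 libraries. PLA has 2 libraries, so its fits with 1 left assume that this library varies like the other groups. Low counts limit Sost, Notum and 11 further genes to a statement of their counts.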
